A study of Mus musculus with 84 samples.

Results

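Kit is the receptor tyrosine kinase for stem cell factor (Kitl), and its mRNA was followed here across glands, fat, tumors and lung metastases of mice that carry a mammary oncogene. Members were all clones that carry the symbol Kit alone, on either type of spotted cDNA array. They came to 1 clone (Entrez gene 16590) on the 15k arrays and 0 on the 8.7k arrays, for 1 gene of the 7770 measured over both array types. Every value is a log2 ratio of sample RNA to one common reference RNA pooled from ovary, liver, spleen, kidney, thymus, pancreas, lung and lactating mammary gland, so 0 means the level of that pool. Folds compare geometric means, SE stands for the standard error of the difference on the log2 scale, and adjusted p is the Benjamini-Hochberg value of limma over all clones.

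The 65 arrays of the 15k type held 23 mammary tumors of mice with the MMTV-Wnt-1 transgene, within an age range of 9 to 56 weeks, and 12 of mice with the MMTV-Neu transgene, at 32 to 60 weeks. They also held 10 lung metastases of MMTV-Wnt-1 mice and 3 of MMTV-Neu mice, and 2 lung metastases of nontransgenic mice injected in the tail vein with MMTV-Neu primary tumor cells. The remainder were 7 hyperplastic mammary glands of MMTV-Wnt-1 mice aged 9 weeks, 5 mammary glands of virgin nontransgenic FVB mice aged 9 weeks, and 3 samples of intestinal fat of virgin FVB mice aged 12 weeks. Both transgenes were driven by the long terminal repeat of the mouse mammary tumor virus, and Neu was a rat cDNA that encodes the wild-type protein. MMTV-Neu mice were FVB, while MMTV-Wnt-1 mice were a mixture of over 75% FVB with SJL and C57BL/6, so oncogene, age and strain cannot be told apart between the tumor types. Hyperplastic and virgin glands differed in transgene and strain together, and Neu-induced tumors and virgin glands in transgene and age. Wnt-1-induced tumors differed from virgin glands in transgene, strain and age range, and from hyperplastic glands in age range. These parts cannot be told apart from tissue stage either. On the 8.7k arrays, 6 tumors of MMTV-Wnt-1 mice in a P53 -/- background (9 to 14 weeks) were set against 10 tumors of MMTV-Wnt-1 mice. The range of 9 to 56 weeks is given for MMTV-Wnt-1 tumors of both array types together, so these groups may also differ in age. The 8.7k arrays bear here on Kitl alone.

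Binding of stem cell factor pairs Kit molecules on the cell surface, which phosphorylate each other and pass the signal through PI3 kinase, Src family kinases, Jak2 and the Ras pathway. In the mouse mammary gland Kit is known as a surface marker of luminal progenitor cells, and outside it as a receptor of mast cells, melanocytes, germ cells and blood progenitors. These were whole-tissue RNAs, so fewer cells with Kit and less Kit RNA per cell cannot be told apart.

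The 15k arrays had median log2 ratios between -0.144 and 0.0431. The SD within an array was 0.936 for the median array and above 1.3 for 6 arrays, namely tumors 42 and 49 and metastases 19, 50 and 52 of MMTV-Wnt-1 mice, and fat 44, the widest at 2.59. The number of arrays limits the precision. Whether arrays of a group are separate mice is not given for each sample, so p-values measure the spread between these samples.

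The Kit promoter is shown because the Kit RNA differed between tissues and because AP-2 gamma (Tfap2c), whose values are given below, belongs to a family that binds the motif searched here. The 250 bases before the Kit start site (RefSeq, GRCm38.p6, chr5:75574737-75574986, plus strand) are printed with motif matches in capitals.
Kit: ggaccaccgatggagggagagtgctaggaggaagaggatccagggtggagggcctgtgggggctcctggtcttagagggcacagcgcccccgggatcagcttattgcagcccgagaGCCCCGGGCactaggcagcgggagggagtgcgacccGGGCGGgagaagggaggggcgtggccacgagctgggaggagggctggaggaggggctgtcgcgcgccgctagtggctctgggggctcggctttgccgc
Of these bases 70.8% were G or C. Searched on both strands, the AP-2 motif GCCNNNGGC had 1 match, starting 134 bases before the start site, and was present in 13.6% of the 27025 promoter windows of the same length. The GC box GGGCGG had 1 match, 98 bases before the start site, and was present in 32.9% of windows. The matches did not overlap. GATA and the E-box CANNTG had 0 matches in these letters, against 54.1% and 66% of windows with at least 1. A match is a description of letters and not of binding.

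Kit stood low in fat and virgin glands, higher in hyperplastic glands, and highest in tumors and metastases. In the 3 fat samples the Kit log2 ratio was -0.93, -1.25 and -7.76, the last on fat 44. In the 5 virgin glands it was -0.37, 0.10, 0.13, 0.29 and 0.44. In the 7 hyperplastic glands it was 0.33, 0.57, 0.64, 0.82, 0.94, 1.16 and 1.69. Fat lay below every gland, and 6 of the 7 hyperplastic glands lay above every virgin gland. The 23 Wnt-1-induced tumors had a lowest Kit ratio of 1.76 (tumor 47), a median of 2.78 and a highest of 3.46, and the 12 Neu-induced tumors 2.19 (tumor 61), 3.23 and 3.61. The 10 Wnt-1 metastases had a lowest value of 1.54 (metastasis 52), a median of 2.82 and a highest of 3.31. The metastases of MMTV-Neu mice had 2.71, 3.17 and 3.36, and the tail-vein metastases 2.56 and 3.23. Every tumor lay above every gland, and of the metastases only number 52 of an MMTV-Wnt-1 mouse fell below the highest hyperplastic gland.

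**Figure D1:**
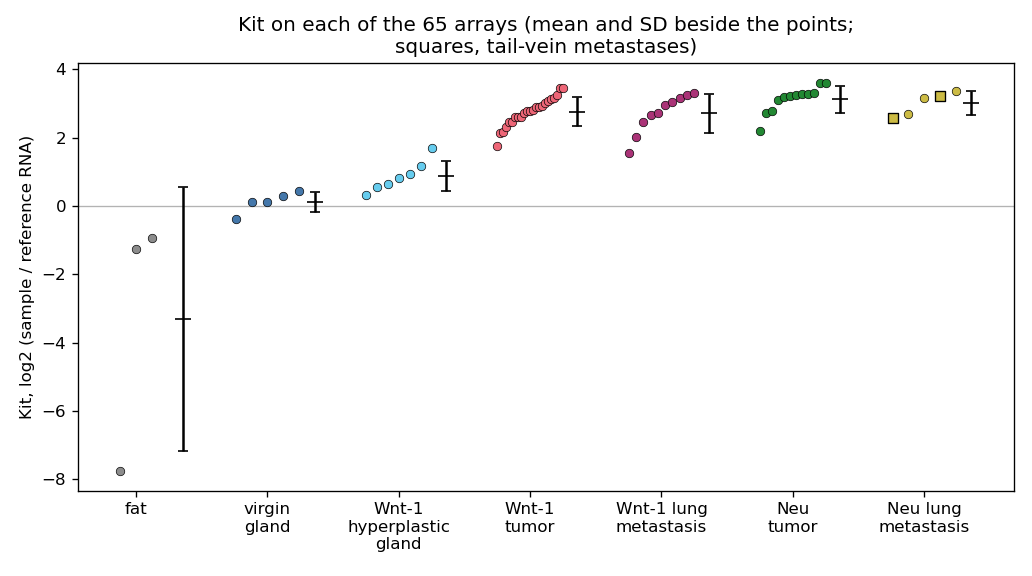
Kit log2 ratio of sample to reference RNA (vertical axis) on each of the 65 arrays, by tissue (horizontal axis), with the mean and SD beside the points and tail-vein metastases as squares. All 35 tumors lie above 1.7, all 12 glands between -0.4 and 1.7, and 1 fat array stands apart at -7.76.

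The order of group means, low to high, was fat, virgin gland, hyperplastic gland, Wnt-1 metastasis, Wnt-1-induced tumor, Neu metastasis and Neu-induced tumor. In 1 fit over all 7 groups, the neighbours that differed were virgin gland over fat (log2 difference 3.43, SE 0.60, adjusted p = 1.7e-05, where 29.5% of clones were called) and Wnt-1 metastasis over hyperplastic gland (1.83, SE 0.40, adjusted p = 0.00021, where 36.3% were). The other neighbours did not pass in that fit, with adjusted p of 0.343 for hyperplastic over virgin gland and between 0.737 and 1 among tumors and metastases. Its shared error does not measure the spread of fat, whose SD was 3.86 with 1 array at -7.76. In the fit of fat and virgin glands alone, their difference did not pass (SE 1.46, adjusted p = 0.169). Without the fat arrays, whose spread enters the shared error, hyperplastic over virgin gland passed (adjusted p = 0.0252), and none of the neighbouring tumor and metastasis groups passed (0.43 to 0.999).

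Within a group, Kit varied more than most clones. Its SD was 0.42 over the Wnt-1-induced tumors, where 70.2% of clones had a smaller SD, and 0.40 over the Neu-induced tumors, where 71.1% did. It was 0.57 over the Wnt-1 metastases (79.3%), 0.45 over the hyperplastic glands (86.3%) and 0.30 over the virgin glands (71.8%). The median SD of all clones lay between 0.211 and 0.302 in these groups and the other 2.

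The Wnt-1 stages ask when Kit changes between a normal gland, a gland with widespread hyperplasia and a tumor. Kit rose 3.67-fold in Wnt-1-induced tumors (2.75 ± 0.42, SD, n = 23) over hyperplastic glands (0.88 ± 0.45, SD, n = 7; log2 difference 1.88, SE 0.18, 95% interval of the fold 2.84 to 4.74, adjusted p = 6.51e-10). All 23 tumors were above all 7 glands. In that comparison 41.7% of clones were called in either direction, and the rise of Kit ranked 36 of 15360 clones. The study singled Kit out for its pattern over these stages in these samples, so the p-values of the stage comparisons are not independent evidence. In hyperplastic glands Kit was 1.70-fold higher than in virgin glands (0.12 ± 0.30, SD, n = 5; log2 difference 0.76, SE 0.21, adjusted p = 0.019), where 21.9% of clones were called. This call was lost with all groups in 1 fit, as given above. The study reported c-Kit RNA as higher in Wnt-1-induced tumors than in hyperplastic glands. With a threshold of P under 0.001, it described c-Kit RNA as similar in virgin and hyperplastic glands. Permuted on each gene alone, 7 against 5 arrays give no exact permutation p below 0.00253. By immunohistochemistry the study found c-Kit protein hardly detectable in both kinds of gland and widespread in Wnt-1-induced tumors. Tumors stood 6.22-fold above virgin glands (log2 difference 2.64, SE 0.20, adjusted p = 2.92e-12; 49.4% of clones called). As a description, the step to the tumor exceeded the step to hyperplasia by 1.12 on the log2 scale (SE 0.37), a contrast in which 16.2% of clones were called.

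Neu-induced tumors had the highest mean. Kit was 8.06-fold higher in them (3.13 ± 0.40, SD, n = 12) than in virgin glands (0.12 ± 0.30, SD, n = 5; log2 difference 3.01, SE 0.19, adjusted p = 3.24e-10), with all 12 tumors above all 5 glands and 52.2% of clones called. No hyperplastic gland of MMTV-Neu mice was analysed here, so the steps of that model were not separated. Wnt-1-induced tumors had 0.773 times the Kit ratio of Neu-induced tumors (log2 difference -0.37, SE 0.14, adjusted p = 0.0354), where 43.6% of clones were called. Their ranges overlapped, with 3 tumors of MMTV-Wnt-1 mice under the lowest of MMTV-Neu mice and 2 of MMTV-Neu mice over the highest of MMTV-Wnt-1 mice. That small difference did not hold under other processing: with quantile normalization it was 0.36 in the opposite direction (adjusted p = 0.292), and 9 of 35 single tumors, when left out, ended the call (adjusted p up to 0.0733).

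**Figure D2:**
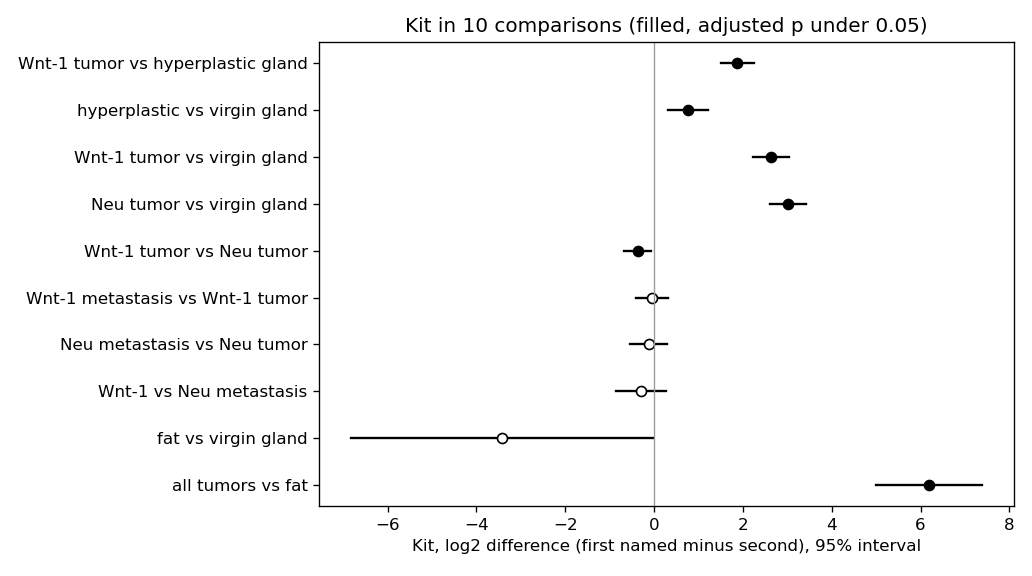
Kit log2 difference (horizontal axis, first named group minus second) with its 95% interval in 10 comparisons (vertical axis), filled where the adjusted p was under 0.05. Tumors against glands lie between 1.88 and 3.01, and the 3 comparisons that involve metastases include 0.

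Lung metastases addressed whether Kit RNA is kept after spread. Kit was 2.71 ± 0.57 in Wnt-1 metastases (SD, n = 10) and 2.75 ± 0.42 in Wnt-1-induced tumors (SD, n = 23), a log2 difference of -0.05 (95% interval -0.40 to 0.31, adjusted p = 0.917), with 4.62% of clones called. In Neu metastases, tail-vein samples included, it was 3.0 ± 0.35 (SD, n = 5), against 3.13 ± 0.40 in Neu-induced tumors (SD, n = 12), a difference of -0.12 (95% interval -0.53 to 0.29, adjusted p = 0.934; 0.189% of clones called). Neither interval reached a 2-fold change, the nearer bounds to it being folds of 0.756 and 0.69 at the low end. The Neu fit took the 5 metastases as separate samples, though the tail-vein samples share title numbers with others. Its interval may therefore be too narrow. Wnt-1 metastases were 0.815 times Neu metastases (log2 difference -0.30, SE 0.27, adjusted p = 0.474; 21.6% of clones called). The difference of metastasis minus tumor was 0.08 larger with Wnt-1 than with Neu (SE 0.29, adjusted p = 0.967; 0.104% of clones called).

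Metastases and tumors also share numbers in their titles, 7 for MMTV-Wnt-1 and 3 for MMTV-Neu. Metastasis minus tumor was 1.27 for number 47, whose tumor was the lowest of its group, and -0.47 for number 49. The other 5 Wnt-1 numbers, 36, 38, 42, 50 and 62, gave differences of -0.13, 0.49, 0.25, -0.29 and 0.42. The mean was 0.22 ± 0.59 (SD, n = 7), higher in the metastasis for 4 of 7 numbers (exact sign-flip permutation p = 0.406, two-sided). For Neu numbers 53, 56 and 61 the differences were 0.11, 0.07 and 0.51, all positive, where 3 pairs cannot give an exact p below 0.25. The tail-vein metastases are numbered 53E and 56E, beside Neu metastases and tumors 53 and 56, and were not among these pairs. Whether a number marks 1 mouse or 1 donor is not stated.

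**Figure D3:**
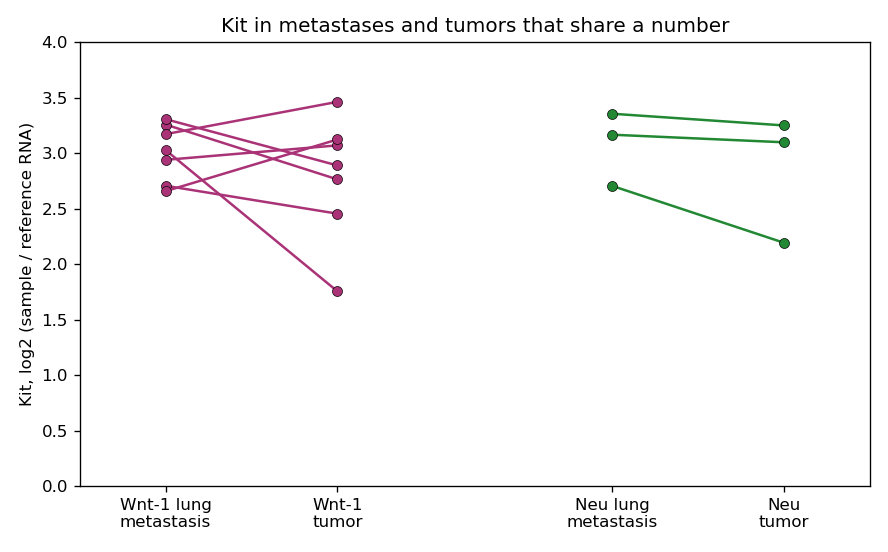
Kit log2 ratio (vertical axis) in lung metastases, left, and tumors, right, joined by a line where both carry the same number in their titles. Of the 7 Wnt-1 lines 4 have the higher value in the metastasis, with number 47 farthest apart (3.03 against 1.76), as do all 3 Neu lines.

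Lung RNA was present in the metastases. The mean of 9 lung marker genes was between -0.548 and 1.39 on the Wnt-1 metastasis arrays, against -3.74 to -1.86 on the Wnt-1-induced tumor arrays, and 6 of the 9 were called higher and 0 lower, where 2.88% of all genes were higher and 2.58% lower. In Neu metastases the range was -1.31 to 0.421, against -2.50 to -1.88 in Neu-induced tumors, with 3 called higher and 0 lower beside 0.206% and 0.0129% of all genes. The part of lung RNA in the Kit values of metastases was not tested.

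Fat was the control for the adipocytes around the gland. Kit averaged -3.31 in fat and 0.12 in virgin glands, a log2 difference of -3.43 that did not pass (SE 1.46, adjusted p = 0.169; 9.09% of clones called), the 3 fat arrays being spread between -0.93 and -7.76. Without fat 44 the difference was -1.21 and passed (SE 0.22, adjusted p = 0.012). Tumors of both oncogenes together stood 6.20 above fat on the log2 scale (SE 0.59, adjusted p = 3.26e-11; 53.3% of clones called) and 3.97 above it without fat 44. The median gene moved by -0.128 between fat and virgin gland and by 0.141 between tumors and fat, so these differences are read against those shifts.

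Adipocyte content differed strongly between the same groups. The mean of 17 adipocyte markers lay between 2.08 and 2.76 in fat, 1.65 and 2.23 in virgin glands, 0.526 and 0.785 in hyperplastic glands, -2.34 and -0.981 in Wnt-1-induced tumors and -1.99 and -1.23 in Neu-induced tumors. Of the 17, 15 fell and 0 rose in Wnt-1-induced tumors against hyperplastic glands, and 16 fell and 0 rose in Neu-induced tumors against virgin glands. Over all genes, 21.9% rose and 22.2% fell in the first of these comparisons, and 26.8% rose and 28.8% fell in the second. Lpl, a lipase of adipocytes, had a ratio of 0.0938 and 0.0276 in those comparisons, and Scd1, a fatty acid desaturase, 0.104 and 0.0676. Adiponectin (Adipoq), an adipocyte hormone, had a ratio of 0.0705 in Wnt-1-induced tumors against hyperplastic glands, and Pparg, the regulator of adipocyte formation, 0.107 in Neu-induced tumors against virgin glands. In the second comparison the log2 differences of 3 Scd1 clones lay between -7.30 and -0.51, and those of 3 Pparg clones between -5.05 and -0.60. In the first, the Scd1 clones lay between -5.75 and -0.25. The part of adipocyte content in the Kit differences was not tested.

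Kit was also set against epithelial markers on the same array, a comparison added after the values were seen. The mean of 9 epithelial markers was 0.64 in Wnt-1-induced tumors and 0.59 in hyperplastic glands, against 0.19 in virgin glands. Kit less that mean was 1.82 higher in Wnt-1-induced tumors than in hyperplastic glands (permutation p = 2e-05, the smallest these permutations can give, and 3.39e-05 adjusted over 5 comparisons). The list mean differed by 0.055 between these 2 groups, so this p-value mostly repeats the separation of Kit alone. Kit less the list mean was 0.37 higher in hyperplastic than in virgin glands, against 0.76 for Kit alone (exact permutation p = 0.0404, adjusted 0.0404). It was 2.19 higher in Wnt-1-induced tumors and 3.42 higher in Neu-induced tumors than in the virgin glands (exact permutation, adjusted p = 3.39e-05 and 0.000404). The epithelial list did not behave as 1 block: cadherin 1 (Cdh1), the adhesion molecule of epithelia, was 2.53-fold higher in Neu-induced tumors than in glands of virgin mice, while keratin 19 (Krt19) had a ratio of 0.0473. In Wnt-1-induced tumors against hyperplastic glands 3 of the 9 rose and 1 fell, beside 21.9% and 22.2% of all genes. Krt19 and claudin 7 (Cldn7) were 1.65-fold and 1.69-fold higher there, and claudin 4 (Cldn4) had a ratio of 0.568. The similar list means of these groups are therefore not a measure of equal epithelial content. The p-values of Kit less the list do not test the part of epithelial content in the Kit differences. Kit less the list was 1.23 lower in Wnt-1-induced tumors than in Neu-induced ones, a value that carries the 65.7-fold difference of Krt19 between them.

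**Figure D4:**
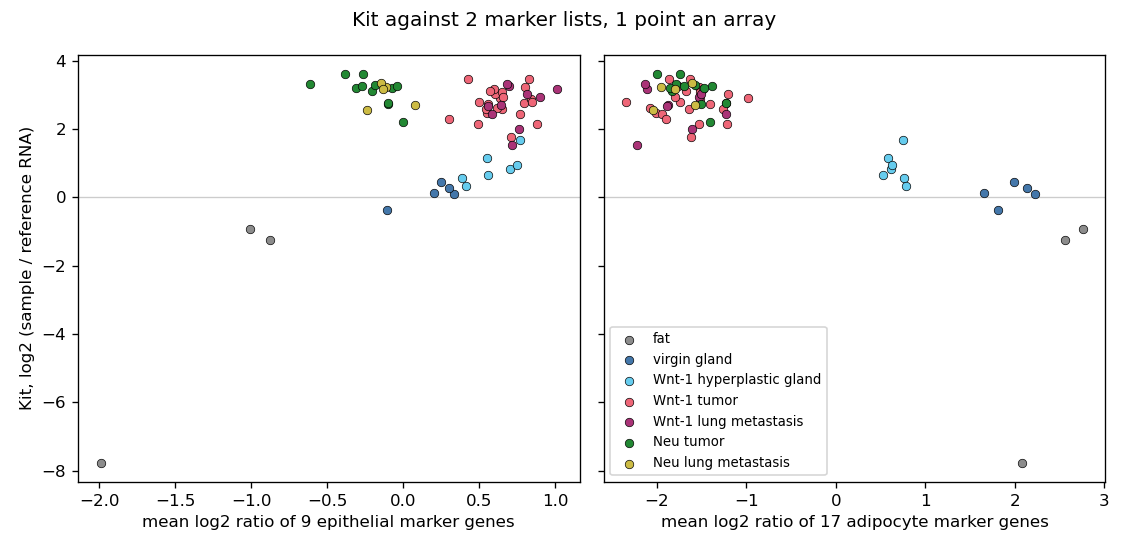
Kit log2 ratio (vertical axis) against the mean log2 ratio of 9 epithelial markers (left) and of 17 adipocyte markers (right), 1 point an array, colored by tissue. Wnt-1-induced tumors and hyperplastic glands span similar epithelial means (0.302 to 0.876 in tumors, 0.388 to 0.767 in glands) at different Kit levels. Single epithelial markers moved both ways between these groups. Adipocyte means fall as Kit rises across tissues.

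Within groups, none of the relations of Kit to marker lists passed. Of 9 relations computed (luminal progenitor, adipocyte and mast cell lists, each over Wnt-1-induced tumors, Neu-induced tumors and Wnt-1 metastases), 0 passed after adjustment. The strongest was with 13 luminal progenitor markers over the 10 Wnt-1 metastases (Pearson r = -0.722, permutation p = 0.0181, adjusted 0.115; Spearman rho = -0.576, permutation p = 0.0875, adjusted 0.22), and r was -0.514 without the 2 arrays farthest from the median of the list. Next came 17 adipocyte markers over the 12 Neu-induced tumors (r = -0.627, permutation p = 0.0255, adjusted 0.115; rho = -0.503, permutation p = 0.0976, adjusted 0.22), with r = -0.496 without the farthest 2. In the same 12 tumors the luminal progenitor markers had r = -0.505 (permutation p = 0.0921, adjusted 0.276) and rho = -0.601 (permutation p = 0.0421, adjusted 0.19), with r = -0.362 without the farthest 2. The 5 mast cell markers had r = -0.426 there (permutation p = 0.168, adjusted 0.302) and rho = -0.622 (permutation p = 0.0344, adjusted 0.19), and r was -0.144 without the farthest 2. The luminal progenitor list had a negative r in all 3 groups. Over the 23 Wnt-1-induced tumors all 3 lists had r between -0.132 and 0.0444. Without the farthest 2, r there was -0.413 (luminal progenitor), 0.026 (adipocyte) and -0.0115 (mast cell). In Wnt-1 metastases r went from 0.0328 to -0.405 for adipocyte markers and from 0.528 to 0.135 for mast cell markers.

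Luminal progenitor markers, the genes of the mammary cells known to carry Kit, rose with it in part. In hyperplastic against virgin glands 7 of 13 rose and 0 fell, where 9.58% of all genes rose and 14.3% fell. In Wnt-1-induced tumors against hyperplastic glands 5 rose and 1 fell, beside 21.9% and 22.2% of all genes: the ETS factor Ehf was 3.06-fold higher (adjusted p = 1.22e-09) and the milk fat globule protein Mfge8 1.69-fold higher, while the tetraspanin Tspan8 had a ratio of 0.487. In Neu-induced tumors against virgin glands 8 rose and 2 fell, beside 26.8% and 28.8% of all genes, with rises of lipocalin 2 (Lcn2, 21.7-fold), kappa-casein (Csn3, 19.3-fold) and Tspan8 (8.82-fold). The median log2 difference of the list was 0.488, 0.221 and 1.34 in these 3 comparisons, against medians over all genes of -0.0192, -0.0284 and 0.00748. Csn3 is a milk protein, and Lcn2 is a secreted carrier of iron-binding molecules found in inflamed epithelium.

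Basal and myoepithelial markers moved apart from Kit between the tumor types. In Wnt-1-induced tumors against hyperplastic glands 5 of 9 rose and 0 fell, beside 21.9% and 22.2% of all genes, led by calponin 2 (Cnn2, 2.98-fold), P-cadherin (Cdh3, 1.90-fold) and calponin 1 (Cnn1, 2.55-fold). The 2 clones of Cdh3 disagreed, with log2 differences of -0.04 and 1.89. In Neu-induced tumors against virgin glands 0 rose and 6 fell, beside 26.8% and 28.8% of all genes, with ratios of 0.241 for Tgfb1i1, 0.481 for the myosin kinase Mylk and 0.417 for the smooth muscle myosin Myh11. Set directly against each other, Wnt-1-induced tumors had 8 of the 9 higher and 0 lower than Neu-induced tumors, where 22.8% of all genes were higher and 23% lower. Kit was high in both tumor types.

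Of the measured markers of mast cells, melanocytes and blood progenitors, other cells that carry Kit, 0 rose in Wnt-1-induced tumors against hyperplastic glands or in Neu-induced tumors against virgin glands. Over all genes 21.9% rose and 22.2% fell in the first comparison, and 26.8% rose and 28.8% fell in the second. Of 16 mast cell markers listed, 5 were measured, and their mean lay between -1.53 and -0.414 in Wnt-1-induced tumors, against -0.133 to 0.254 in hyperplastic glands. It was -1.29 to 0.156 in Neu-induced tumors and 0.0224 to 0.272 in virgin glands. In Wnt-1-induced tumors against hyperplastic glands 2 fell and 0 rose: mast cell chymase (Cma1) had a ratio of 0.10 (adjusted p = 1.18e-08) and serglycin (Srgn), a proteoglycan of granules, 0.487. In Neu-induced tumors against virgin glands 3 fell and 0 rose, histidine decarboxylase (Hdc), the histamine enzyme, at 0.513 among them. Of 4 melanocyte markers 1 fell and 0 rose in either comparison, the endothelin receptor Ednrb, with ratios of 0.855 and 0.738, and Dct, the pigment enzyme, had a ratio of 0.807 that did not pass (adjusted p = 0.119) in Wnt-1-induced tumors. Of 6 blood progenitor markers 1 fell and 0 rose in Wnt-1-induced tumors (Cd34, 0.58) and 2 fell and 0 rose in Neu-induced tumors (Cd34, 0.435, and Tal1, 0.505). Gata2, a factor of blood progenitors and mast cells, averaged -0.35 ± 2.08 in Wnt-1-induced tumors (SD, n = 23) and -1.87 ± 0.71 in hyperplastic glands (SD, n = 7), a 2.87-fold difference that did not pass (log2 SE 0.78, adjusted p = 0.116). It passed, in the same direction, under 3 alternatives (quantile normalization, ratios under 0.01 or over 100 missing, and without arrays of wide spread), and between the tumor types Wnt-1-induced tumors had 3.24 times its ratio in Neu-induced tumors (adjusted p = 0.0248). Endothelial markers had 1 of 13 higher and 6 lower in Wnt-1-induced tumors against hyperplastic glands and 0 higher and 10 lower in Neu-induced tumors against virgin glands, and of 8 macrophage markers 1 rose and 3 fell in each comparison.

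The ligand was measured by 1 clone on each array type. In Wnt-1-induced tumors the lowest, median and highest Kitl log2 ratios were -0.21, 0.65 and 1.42, and in Neu-induced tumors -1.02, 0.40 and 0.60. Kitl was -0.29, -0.05, 0.02, 0.20, 0.46, 0.48 and 0.57 in the 7 hyperplastic glands, and -0.17, 0.36, 0.38, 0.57 and 1.13 in the 5 virgin glands. These groups overlapped throughout. Kitl rose 1.36-fold in Wnt-1-induced tumors over hyperplastic glands (log2 difference 0.44, SE 0.17, adjusted p = 0.0318), a call lost without hyperplastic gland 7, 10, 11 or 14 (adjusted p = 0.0515 to 0.101), with all groups in 1 fit (0.0517) and in the permutation test of the study's methods (permutation p = 0.0134, threshold 0.001). Its level in Wnt-1-induced tumors was 1.44 times that in Neu-induced ones (0.52, SE 0.16, adjusted p = 0.00746), where Kit had the lower mean, and this call too was lost in that permutation test (permutation p = 0.00366). Against virgin glands it did not pass in Wnt-1-induced tumors (log2 difference 0.19, 95% interval -0.22 to 0.60) or in Neu-induced tumors (-0.34, 95% interval -0.89 to 0.22), the tumors in which Kit was 6.22-fold and 8.06-fold higher.

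On the 8.7k arrays Kitl was 1.29, 0.71, 0.59, 0.07, -0.21 and -0.29 in the 6 tumors of MMTV-Wnt-1 mice in a P53 -/- background, and had a lowest value of 0.61, a median of 1.18 and a highest of 1.58 in the 10 MMTV-Wnt-1 tumors without that label. The P53 -/- tumors had 0.583 times the ratio (log2 difference -0.78, SE 0.23), which did not pass after adjustment (p = 0.00365 in limma before adjustment, adjusted p = 0.118), with 4 of the 6 below all 10 others and 0.442% of clones called.

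**Figure D5:**
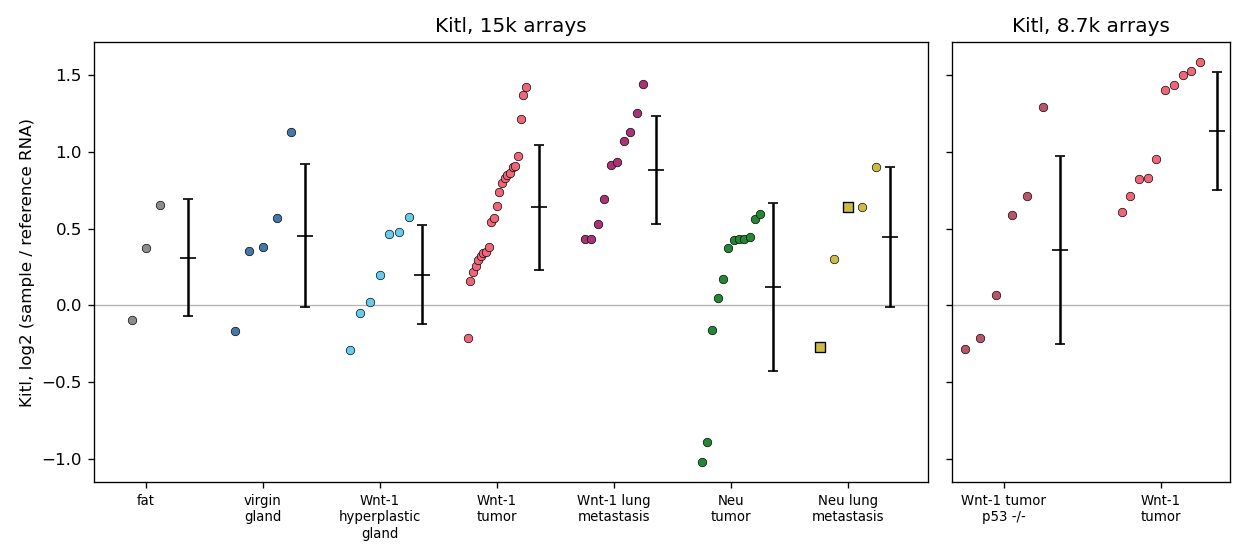
Kitl log2 ratio of sample to reference RNA (vertical axis) by tissue (horizontal axis) on the 15k arrays (left) and the 8.7k arrays (right), with the mean and SD beside the points and tail-vein metastases as squares. All 7 groups of the 15k arrays overlap between -1.1 and 1.5, and 4 of the 6 P53 -/- tumors lie below every other tumor of the 8.7k arrays.

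Of 55 genes that carry or restrain the Kit signal, 27 were measured. In Wnt-1-induced tumors against hyperplastic glands 13 rose and 4 fell, beside 21.9% and 22.2% of all genes, and the median difference was 0.136. The kinase Akt1, downstream of PI3 kinase, was 1.60-fold higher (adjusted p = 6.56e-11), the kinase Jak2 2.09-fold and the adaptor Crkl 1.46-fold. The 2 clones of Akt1 differed, with log2 differences of 0.09 and 1.26. In hyperplastic against virgin glands 3 rose and 5 fell, beside 9.58% and 14.3% of all genes. In Neu-induced tumors against virgin glands 9 rose and 6 fell, beside 26.8% and 28.8% of all genes, with a median of 0.114: Sh2b3 (Lnk), an adaptor that restrains Kit in blood cells, had a ratio of 0.251 (adjusted p = 2.11e-08), while the adaptors Grb7 and Dok1 were 2.16-fold and 2.06-fold higher. Most of these genes serve many receptors.

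Kit belongs to the class III receptor tyrosine kinases, of which 1 of the 4 others listed was measured. Pdgfra, a receptor of mesenchymal cells, had a ratio of 0.363 in Wnt-1-induced tumors against hyperplastic glands (adjusted p = 3.39e-07) and 0.295 in Neu-induced tumors against virgin glands (adjusted p = 1.88e-06), the opposite direction to Kit. Of 18 other receptor tyrosine kinases, 5 rose and 7 fell in the first comparison (21.9% and 22.2% of all genes) and 6 rose and 9 fell in the second (26.8% and 28.8% of all genes). The Wnt co-receptor Ryk rose 1.62-fold in Wnt-1-induced tumors, and Egfr, the receptor of epidermal growth factor, and Tek, an endothelial receptor, had ratios of 0.653 and 0.541. In Neu-induced tumors Ptk7, Tek and Axl had ratios of 0.303, 0.259 and 0.31 against virgin glands.

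Of 16 transcription factors listed for Kit, mostly from work on blood cells, melanocytes and mammary epithelium, 13 were measured. In Wnt-1-induced tumors against hyperplastic glands 4 rose and 1 fell, beside 21.9% and 22.2% of all genes, and in Neu-induced tumors against virgin glands 4 rose and 4 fell, beside 26.8% and 28.8%. AP-2 gamma (Tfap2c), a factor of mammary epithelium, rose 2.39-fold in Wnt-1-induced tumors (2.89 against 1.63 in hyperplastic glands, adjusted p = 0.000939) and 12.4-fold in Neu-induced tumors (3.81 against 0.18 in virgin glands, adjusted p = 7.42e-14). Ets2 was 1.35-fold higher in the first comparison, though its 3 clones disagreed, with log2 differences between -0.53 and 1.21. Elf5, a factor of luminal progenitors, was 2.54-fold higher in the second. Lmo2, a partner of GATA and E-box factors in blood cells, had ratios of 0.671 and 0.352.

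The pattern of Kit over the arrays was compared with 11856 clones of 7762 other genes by Pearson r, as a description, since these arrays share a reference and their groups. Over all 65 arrays the 8 genes most like Kit were Crb3 (r = 0.941), Camsap3 (0.937), Fam53c (0.935), Ccnjl (0.933), Chaf1b (0.932), Bag2 (0.932), Neil3 (0.922) and Carmil1 (0.919). Crb3 is a polarity protein of epithelia, Camsap3 binds microtubule ends, Chaf1b is a chromatin assembly factor of dividing cells and Neil3 a DNA repair enzyme. Crb3 averaged 0.30 in Wnt-1-induced tumors and 1.06 in Neu-induced tumors, against -0.46 in hyperplastic glands, -0.99 in virgin glands and -3.87 in fat. The 4 most opposed were Meox2 (r = -0.916), Birc3 (-0.895), Pgpep1 (-0.892) and 4930412C18Rik (-0.891), each highest in fat. Other clones of a gene could differ, as for Chaf1b, whose 2 others had r of 0.198 and 0.908, and Pgpep1, whose 2 others had -0.584 and 0.101.

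These likenesses leaned on the fat arrays. Without them, over 62 arrays, the same 8 genes had r between 0.766 and 0.860, and the highest r belonged to Ceacam1 (0.880, an adhesion molecule of epithelia) and Ehf (0.871, on the luminal progenitor list). After each group mean was subtracted, Tmem19, Ssx2ip, Slc38a10, Stambpl1, Ldlrad4 and Mau2 led with r between 0.870 and 0.879 over 65 arrays, but with r between 0.283 and 0.517 without fat. The highest r of any clone within groups was then 0.633, of 1 of 3 Glg1 clones, whose others had r of 0.084 and 0.183. Kitl had r of 0.180 with Kit over 65 arrays and 0.228 without fat.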

How the data were processed

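RNA was hybridized to spotted cDNA arrays, the sample labeled with Cy5 and the reference with Cy3. The authors scanned the slides, scored spot quality and normalized each array, and the deposited values are their log2 ratios of Cy5 to Cy3. No source used here states the log base, which was taken as 2 from the lowest values. Quality scores were not analysed here, so every clone was tested. Clones were named through the platform annotation, with symbols updated through RefSeq. Of the 15360 clones, 11860 carried a single symbol, for 7766 genes. Sequences are from RefSeq. The number of arrays limits the precision.

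Groups were compared in R 4.3.3 with limma 3.58.1 (lmFit, eBayes) on the samples of the groups compared, where a clone was measured on 50% or more of each group's arrays and on 2 or more, with Benjamini-Hochberg adjusted p under 0.05. For lists, clones of a gene were averaged first. Permutation tests were exact or used 100000 permutations, two-sided, in scipy 1.17.1. Fits were tested on simulated data. Kit, the lists and the tests were chosen with earlier results of these data known. Genes named are Kit, Kitl, class III kinases, the 3 list members of smallest adjusted p in Wnt-1-induced tumors against hyperplastic glands and in Neu-induced tumors against virgin glands, and the genes most like and unlike Kit; Cdh1 and Krt19 between tumor types, Ceacam1, Ehf and Glg1 as likenesses without fat were chosen after their values were seen. Alternatives were array centring, quantile normalization, filters, other error models, the permutation test of the study's methods, arithmetic means, clones averaged per gene, leaving out arrays, and blocks by title number. Kit has 0 clones on the 8.7k arrays, so its P53 -/- comparison was not made, and another group of those arrays is not reported here.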

Additional observations from a re-analysis of the deposited data

How the results depend on the processing

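The rises of Kit in Wnt-1-induced tumors over hyperplastic and virgin glands, in Neu-induced tumors over virgin glands and in tumors over fat kept their direction and call under all alternatives run. The rise in hyperplastic over virgin glands (0.76) lost its call with all groups in 1 fit (adjusted p = 0.343). The permutation test of the study's methods (0.76 there, exact p = 0.00505, on each gene alone) could not reach its threshold of 0.001, since 7 against 5 arrays give no exact p below 0.00253, so it says nothing of stability. Wnt-1-induced against Neu-induced tumors was 0.36 with quantile normalization (the cause was not tested), and -0.37 without a call in eBayes with trend and robust (adjusted p = 0.0542), in 1 fit of all groups (0.333) and in the methods' permutation test (permutation p = 0.0144). Over single tumors left out it ran between -0.46 and -0.33 (adjusted p = 0.00714 to 0.0733). Fat against virgin glands was called at -1.47 with quantile normalization, at -1.21 with ratios under 0.01 or over 100 missing or without arrays of wide spread, and at -3.43 in 1 fit of all groups. Leaving out single arrays gave -4.63 to -1.21, and 3.97 to 7.39 for tumors against fat. Quantile normalization also turned differences that were not called: 0.00636 (Wnt-1 metastases against tumors), 0.0125 (Neu metastases against tumors), 0.35 (Wnt-1 against Neu metastases) and -0.00613 (the difference of these differences). Without arrays of wide spread, Wnt-1 metastases against tumors was 0.16. Leaving out Neu metastases one at a time, the difference of differences ran between -0.0342 and 0.165. For Kitl, none of them called, leaving out single arrays gave -0.317 to 0.0596 for fat against virgin glands, -0.0522 to 0.324 for tumors against fat and -0.264 to 0.0307 for the difference of differences, which was 0.0455 without arrays of wide spread. Samples that share a title number did not deviate together in every pair (r = -0.0668 to 0.285 over 7 Wnt-1 pairs, and -0.00618, 0.116 and 0.0782 over 3 Neu pairs), and 1 of the 10 metastases, number 50, correlated best with its own number. For Neu metastases 56 and 61 the own number ranked 2 of 12 tumors, and for 53 it ranked 8. For Wnt-1 metastasis 38 it ranked 3 of 23, and for the remaining Wnt-1 metastases between 5 and 18. With the replicate block, Wnt-1 metastases against tumors was 0.22 (adjusted p = 0.694) and Neu metastases against tumors 0.0695 (adjusted p = 0.968), neither called. The Neu block fit placed the tail-vein metastases in the blocks of their title numbers. The Neu pairs given above left them out and had a mean difference of 0.23. The dim-spot limit of the arrays could not be set, since spot intensities were not analysed here.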
